A study of Mus musculus with 9 samples.

Results

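The receptors for the Fc part of IgG, their shared signaling chain and the kinase that this chain engages were followed in primary mouse microglia at the RNA level. The genes were Fcgr1, Fcgr3 and Fcgr4 (the activating receptors), Fcgr2b (the inhibitory receptor), Fcer1g (the Fc receptor gamma chain) and Syk (spleen tyrosine kinase). They were chosen by name, as 6 of the 54119 genes that had a transcript in the deposited table, and the counts of all annotated transcripts of a gene were summed in each library. All 6 were among the 16273 genes that passed the count filter.

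The libraries were made from total RNA of microglia shaken off mixed glial cultures of C57BL/6J embryonic brain, and all cultures received an siRNA: control siRNA, Chd8 siRNA or Tsc2 siRNA, with 3 libraries each. Chd8 encodes a chromatin remodeler and Tsc2 a subunit of the complex that restrains mTORC1, and both are autism risk genes. The paper's text places RNA-seq after LPS stimulation of siRNA-treated microglia, whereas the labels name the siRNA alone, so the levels below may be those of LPS-stimulated cells. The age, sex and number of animals behind each library were not given in the labels. The libraries of each group were numbered 1 to 3, and the study's methods count cultures from separate mouse brains as biological replicates.

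IgG on a particle is bound by Fc gamma receptors on phagocytes such as microglia. The activating receptors Fcgr1, Fcgr3 and Fcgr4 bind IgG but rely on the Fcer1g chain for surface expression and signaling. When receptors cluster, Src-family kinases phosphorylate the tyrosines of the immunoreceptor tyrosine-based activation motif (ITAM) in Fcer1g, Syk docks there, and PI3-kinase, Vav exchange factors and small GTPases then build the actin cup that engulfs the particle. Fcgr2b instead carries an inhibitory motif (ITIM) in its own tail, which recruits the phosphatase SHIP1, encoded by Inpp5d. Since the study measured uptake of beads coated with IgG, the comparison asked whether the RNA of this receptor system differed between control, Chd8 and Tsc2 siRNA.

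Of the 6 genes, 4 lie close together on chromosome 1 (GRCm38, or mm10). Fcgr2b is at chr1:170958617-170976547 (minus strand), Fcgr4 at chr1:171018920-171029761 (plus strand), Fcgr3 at chr1:171051174-171064935 (minus strand) and Fcer1g at chr1:171229572-171234365 (minus strand). Fcgr1 is at chr3:96282909-96293969 (minus strand) and Syk at chr13:52583173-52648792 (plus strand). The coding sequences of Fcgr2b and Fcgr3 were much alike, with 85.6% identical bases over 778 aligned bases, against 64.6% to 68.6% for the other pairs of receptors. The stretch below, from the part that encodes the IgG-binding ectodomain, shows how alike the genes are, since 6 of its 249 bases differ, given in capitals. Each stretch is written 5′ to 3′ along the transcript and joins exons, so its coordinates span an intron (Fcgr2b-202, chr1:170966614-170968141, minus strand, and Fcgr3-201, chr1:171054107-171057852, minus strand).
Fcgr2b: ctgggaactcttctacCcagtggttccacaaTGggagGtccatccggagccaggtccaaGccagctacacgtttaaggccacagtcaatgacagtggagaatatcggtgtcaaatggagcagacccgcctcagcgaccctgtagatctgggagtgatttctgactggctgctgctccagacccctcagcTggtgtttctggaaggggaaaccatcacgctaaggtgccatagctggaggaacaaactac
Fcgr3: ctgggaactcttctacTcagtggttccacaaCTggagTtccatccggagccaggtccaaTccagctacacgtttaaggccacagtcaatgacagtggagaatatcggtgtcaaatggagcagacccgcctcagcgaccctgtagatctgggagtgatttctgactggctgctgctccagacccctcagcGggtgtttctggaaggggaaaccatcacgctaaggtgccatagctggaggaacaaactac

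The longest run of identical coding bases was 129. Of the 31-base words in the main Fcgr3 transcript, 17.7% also occurred in Fcgr2b, and 16.3% of those of the main Fcgr2b transcript occurred in Fcgr3. The share of words found in any other gene was 0% for Fcgr1 and Fcer1g, 1.31% for Fcgr4 and 0.0589% for Syk. The split of counts between Fcgr2b and Fcgr3 therefore carries an uncertainty that the deposited values do not show, and the sum of both genes is also given.

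The signaling motifs stand in the next stretches, with the tyrosine codons in capitals. The ITAM of Fcer1g (chr1:171229874-171230087, minus strand, across exons) begins at residue 65 of 86 encoded residues. The ITIM of Fcgr2b (chr1:170961056-170961198, minus strand, across exons) begins at residue 270 of 293 in Fcgr2b-202. A search of the translated coding sequences found no ITAM in Fcgr1, Fcgr3, Fcgr4 or Fcgr2b.
Fcer1g ITAM: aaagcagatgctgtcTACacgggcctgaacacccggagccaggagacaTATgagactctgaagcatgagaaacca
Fcgr2b ITIM: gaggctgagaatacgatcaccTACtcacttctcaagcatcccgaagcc

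The libraries held 16913448 to 33213801 counts. Levels are given as CPM, the counts of a gene relative to the library total after TMM normalization, and the floor of 3 counts lay between 0.0903 and 0.177 CPM. Every member had at least 1344 counts in every library, so counting error was small beside the spread between libraries. Chd8 was at 93.6 to 118 CPM with control siRNA and at 86.8, 44.5 and 38.3 CPM with Chd8 siRNA. Tsc2 was at 38.9 to 40.8 CPM with control siRNA and at 24.6, 30.6 and 36.5 CPM with Tsc2 siRNA. The target was thus lowest in the libraries labelled with its siRNA, by unequal amounts.

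Microglial markers were high in all libraries, with a sum over 13 genes of 4490 to 6534 CPM, including Csf1r at 406 to 572 CPM. However, 3 defining markers of homeostatic microglia were low: Cx3cr1 at 6.25 to 13.4 CPM, P2ry12 at 0.686 to 2.78 CPM and Tmem119 at 0 to 1.11 CPM. The sum of 9 astrocyte markers was 13.8 to 15.6 CPM in the libraries numbered 1, 27.4 to 30.3 CPM in those numbered 2 and 58.3 to 114 CPM in those numbered 3, and Aqp4 was at 0 in all libraries numbered 1. The control library numbered 3 stood apart with the sum of 114 CPM, Aqp4 at 46.4 CPM and the fibroblast marker Col1a1 at 44.0 CPM, beside at most 18.6 and 22.7 CPM in the other libraries. Other cells that carry Fc receptors left little RNA: the sums were 0.739 to 5.63 CPM for 6 B cell markers, 5.93 to 9.73 CPM for 8 T or NK cell markers (nearly all of it Cd3d), 0.128 to 1.4 CPM for 7 mast cell or basophil markers and 0 to 1.89 CPM for 7 neutrophil markers. Ncr1, Nkg7, Fcer1a, Cpa3, Ly6g and S100a9 were at 0 in all 9 libraries.

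All 6 genes belonged to the abundant transcripts of these cells. Per annotated transcript length, as TPM, the mean over 9 libraries was 544 for Fcer1g, 137 for Fcgr2b, 122 for Fcgr1, 96.2 for Syk, 85.3 for Fcgr4 and 42.7 for Fcgr3. Their TPM lay between the 94.9th and the 99.7th percentile of the genes tested. These values sum all annotated transcripts of a gene, coding or not. For Fcgr1 they include Fcgr1-202, an annotated target of nonsense-mediated decay with 19.0% of the Fcgr1 counts. At 600 bases, against 2589 for the coding Fcgr1-201, it weighs more in TPM than in counts. The order of the genes below Fcer1g is thus not an order of coding RNA. Fcer1g, the chain shared by the activating receptors, was above each of the other genes in all libraries, with 467 to 623 TPM. The ranges of the remaining neighbors overlapped: 65.7 to 210 TPM for Fcgr2b, 68.5 to 184 TPM for Fcgr1, 81.7 to 108 TPM for Syk, 52.2 to 128 TPM for Fcgr4 and 23.5 to 75.8 TPM for Fcgr3. Fcgr4 was nevertheless above Fcgr3 within each of the 9 libraries.

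Among the activating receptors, Fcgr1 encodes the high-affinity receptor. With control siRNA, Fcgr1 stood at 451, 415 and 215 CPM in the libraries numbered 1, 2 and 3. With Chd8 siRNA it stood at 540, 452 and 267 CPM, and with Tsc2 siRNA at 541, 373 and 223 CPM. The groups overlapped, and the libraries numbered 3 were the lowest of every group.

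Fcgr3, a low-affinity receptor, showed the same order of libraries. Its values were 138, 112 and 57.7 CPM with control siRNA, 187, 97.6 and 67.7 CPM with Chd8 siRNA and 196, 96.3 and 65.7 CPM with Tsc2 siRNA. Fcgr4, a receptor of intermediate affinity that favors IgG2 subclasses, stood at 242, 217 and 120 CPM with control siRNA, at 297, 215 and 132 CPM with Chd8 siRNA and at 305, 251 and 146 CPM with Tsc2 siRNA. In all groups the libraries numbered 1 were the highest and those numbered 3 the lowest for both receptors.

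Fcgr2b followed another order. It stood at 522, 314 and 325 CPM with control siRNA, at 607, 261 and 318 CPM with Chd8 siRNA and at 610, 352 and 467 CPM with Tsc2 siRNA. Here the libraries numbered 2 were the lowest of every group, and those numbered 3 lay between.

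Fcer1g and Syk varied less. Fcer1g stood at 623, 720 and 637 CPM with control siRNA, at 776, 801 and 688 CPM with Chd8 siRNA and at 758, 807 and 720 CPM with Tsc2 siRNA. The highest control library reached into the range of both knockdown groups, although 2 of 3 control libraries lay below all knockdown libraries. Syk stood at 865, 915 and 812 CPM with control siRNA, at 874, 934 and 794 CPM with Chd8 siRNA and at 778, 974 and 833 CPM with Tsc2 siRNA, with complete overlap of the groups.

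**Figure D1:**
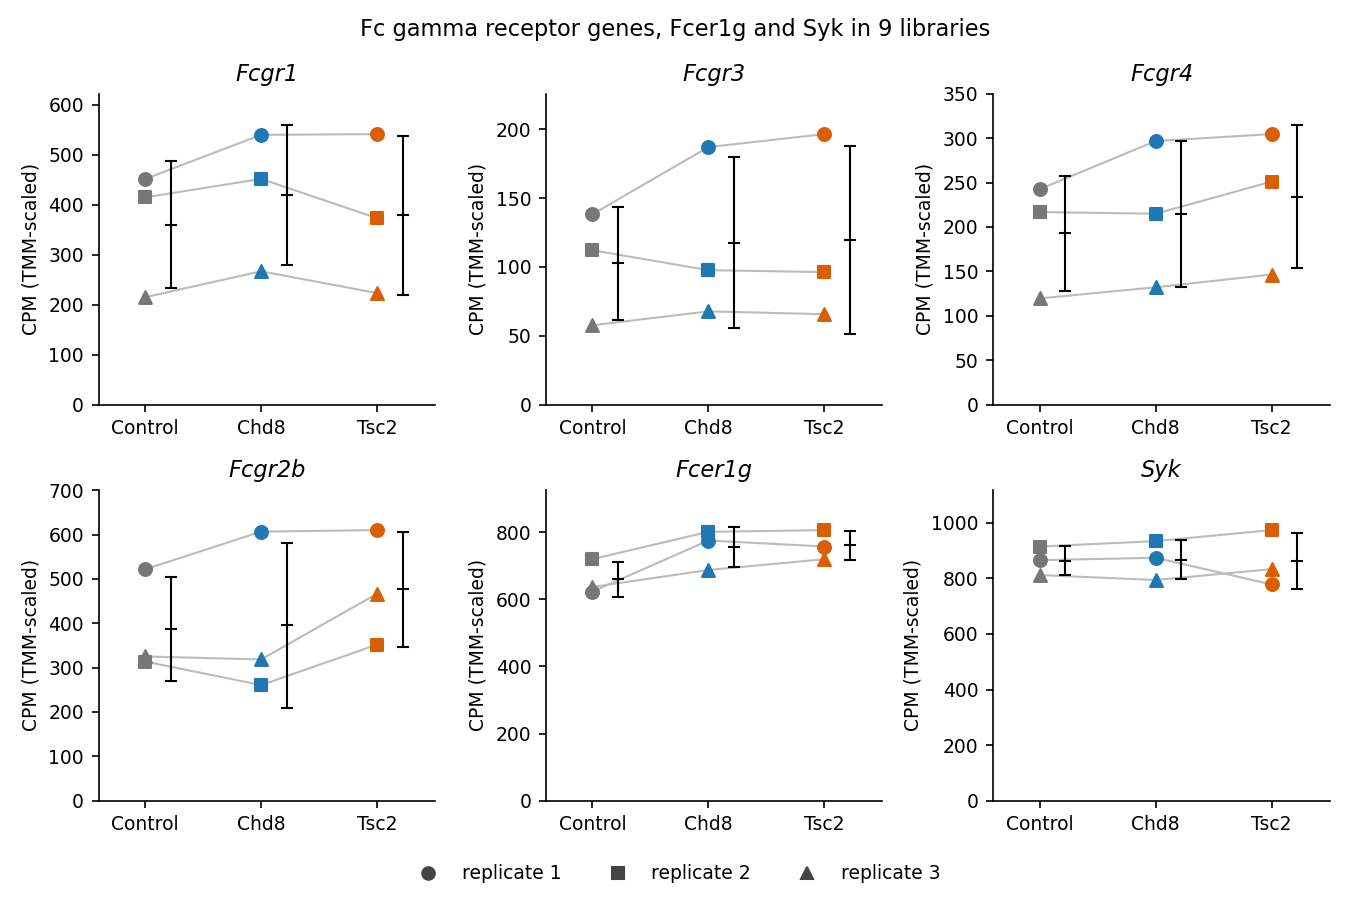
CPM of each gene (y axis, from 0) by siRNA (x axis). Each point is a library, the shape gives its replicate number, grey lines join libraries of a number, and black bars give the mean and SD of 3 libraries. Fcgr1, Fcgr3 and Fcgr4 are ordered by replicate number in every group, while Fcer1g and Syk lie close together.

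The replicate number, not the siRNA, went with most of the variation of the receptors. It held 93.6% of the variance of log2 CPM over 9 libraries for Fcgr1, 93.6% for Fcgr3, 93.1% for Fcgr4 and 80.7% for Fcgr2b, against a median of 41.6% over all genes tested. The siRNA held 4.06%, 1.5%, 5.77% and 12.2% of their variance, respectively, against a median of 18.2%. For Syk the replicate number held 75.5% and the siRNA 0.267%. Fcer1g was the exception, with 55% for the siRNA and 36.6% for the replicate number. The highest library exceeded the lowest 3.41-fold for Fcgr3, 2.55-fold for Fcgr4, 2.52-fold for Fcgr1 and 2.34-fold for Fcgr2b, but 1.29-fold for Fcer1g and 1.25-fold for Syk.

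The sum of the activating receptors was 832 to 1042 CPM in the libraries numbered 1, 720 to 764 CPM in those numbered 2 and 392 to 467 CPM in those numbered 3. The astrocyte marker sum given above moved with the replicate number in the other direction, while the microglial marker sum was 5720 to 6534, 5307 to 5916 and 4490 to 5800 CPM. The part of either in the receptor levels was not tested. Fewer microglia and less receptor RNA per microglia cannot be told apart in such libraries.

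Fcgr1, Fcgr3 and Fcgr4 were thus graded alike across the replicate numbers. Over the 9 libraries, Pearson's r of log2 CPM was 0.94 for Fcgr1 with Fcgr3, 0.95 for Fcgr1 with Fcgr4 and 0.94 for Fcgr3 with Fcgr4. These libraries share 3 replicate numbers, and after the mean of each number was removed r was 0.69, 0.21 and 0.64. For Fcgr2b with Fcgr1 r was 0.40 over the libraries and -0.29 with the replicate means removed, for Fcgr2b with Fcgr4 0.53 and 0.79, and for Fcer1g with Fcgr4 0.53 and 0.87.

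For Chd8 against control siRNA, edgeR's quasi-likelihood test called none of the 6 genes, and it called 0 of all 16273 genes (0%), a call being an FDR below 0.05 with at least a 1.5-fold difference. At an unadjusted p under 0.05 it had 622 genes (3.82%), of which 0 were members. The log2 fold change was 0.22 for Fcgr1 (SE 0.37, 95% interval -0.62 to 1.05), 0.19 for Fcgr3 (SE 0.48), 0.15 for Fcgr4 (SE 0.36), 0.03 for Fcgr2b (SE 0.33), 0.19 for Fcer1g (SE 0.12, interval -0.06 to 0.45) and 0.01 for Syk (SE 0.12, interval -0.27 to 0.28). The adjusted p was 1.00 for each. The median of the 6 was 0.17, beside -0.02 over all genes tested. The intervals of the receptors are wide enough to hold a difference of 1.5-fold in either direction, whereas those of Fcer1g and Syk are not.

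For Tsc2 against control siRNA, the same test called none of the members and 0 of all genes (0%), with 425 genes (2.61%) at an unadjusted p under 0.05. The log2 fold change was 0.07 for Fcgr1 (SE 0.37), 0.22 for Fcgr3 (SE 0.48), 0.28 for Fcgr4 (SE 0.36, interval -0.52 to 1.08), 0.30 for Fcgr2b (SE 0.33, interval -0.44 to 1.04), 0.21 for Fcer1g (SE 0.12, interval -0.05 to 0.46) and -0.00 for Syk (SE 0.12, interval -0.28 to 0.27). The adjusted p was again 1.00 for each, and the median of the 6 was 0.21 beside -0.02 over all genes. Both knockdowns were set against the same control libraries.

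For Chd8 against Tsc2 siRNA, 0 members and 0 of all genes (0%) were called, with 504 genes (3.1%) at an unadjusted p under 0.05. Fcgr2b had a log2 fold change of -0.27 (SE 0.33), Fcgr4 of -0.12 (SE 0.36) and Fcgr1 of 0.15 (SE 0.37), and those of Fcgr3, Fcer1g and Syk lay between -0.02 and 0.01. By exact permutation of the group labels (two-sided, on log2 CPM), p was 0.2 for Fcer1g in either knockdown and 0.4 to 1 in every other gene and comparison, where 3 libraries against 3 allow no p below 0.1. The groups of every member overlapped in all comparisons, whereas 9.09%, 8.11% and 8.44% of all genes had groups without overlap.

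Since libraries of a number varied together, they were also compared within each number. Fcer1g was higher than control at all 3 numbers with Chd8 siRNA, by 0.32, 0.15 and 0.11 on the log2 scale, and with Tsc2 siRNA, by 0.28, 0.16 and 0.18. Fcgr1 was higher than control at all 3 numbers with Chd8 siRNA, by 0.26, 0.12 and 0.31. With Tsc2 siRNA this held for Fcgr4, by 0.33, 0.21 and 0.29, and for Fcgr2b, by 0.23, 0.17 and 0.52. Of all genes tested, 17.7% were higher than control at all 3 numbers with Chd8 siRNA and 15.5% with Tsc2 siRNA, beside 2 and 3 of the 6 members.

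With the replicate number as a block, none of the members was called in any comparison. Of all genes, 87 (0.535%) were called for Chd8 against control siRNA, 63 (0.387%) for Tsc2 against control siRNA and 36 (0.221%) for Chd8 against Tsc2 siRNA. For Chd8 against control siRNA the members with an unadjusted p under 0.05 were Fcgr1, with a log2 fold change of 0.23 (SE 0.08, adjusted p = 0.207), and Fcer1g, with 0.19 (SE 0.06, adjusted p = 0.179). For Tsc2 against control siRNA they were Fcgr4, with 0.28 (SE 0.08, adjusted p = 0.137), Fcgr2b, with 0.31 (SE 0.10, adjusted p = 0.22), and Fcer1g, with 0.21 (SE 0.06, adjusted p = 0.206). At this unadjusted threshold 12.8% and 10.7% of all genes passed, respectively.

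Syk had a block estimate of 0.00 (95% interval -0.14 to 0.15) with Chd8 siRNA and of -0.01 (interval -0.15 to 0.13) with Tsc2 siRNA. As a fold change, these intervals ran from 0.91 to 1.11 and from 0.90 to 1.10. Fcgr3 had block estimates of 0.15 (SE 0.11) and 0.15 (SE 0.11). The microglial markers as a whole also lay above 0 in this fit, with a median log2 fold change of 0.21 for Chd8 and 0.26 for Tsc2 siRNA and with 10 and 9 of 12 tested markers above 0, which is close to the estimates of Fcer1g. The median was -0.27 for Chd8 and -0.93 for Tsc2 siRNA over 5 tested neuron markers, -0.01 and -0.34 over 9 astrocyte markers and -0.28 and -0.14 over 5 endothelial or fibroblast markers, of which 1 was called lower with Chd8 siRNA. For 5 tested oligodendrocyte lineage markers it was 0.06 and -0.16. The 7 listed neuron markers summed to 3.45 to 19.7 CPM, so the neuron medians rest on low levels. The part of the cell makeup in the estimates of the members was not tested.

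Without the control library numbered 3, which held the most astrocyte marker RNA, the block estimate was 0.22 (adjusted p = 0.401) for Fcer1g and 0.21 (adjusted p = 0.599) for Fcgr1 with Chd8 siRNA. With Tsc2 siRNA it was 0.24 (adjusted p = 0.515) for Fcer1g, 0.27 (adjusted p = 0.549) for Fcgr4 and 0.25 (adjusted p = 0.715) for Fcgr2b. Without the block, the estimates of Fcgr1, Fcgr3, Fcgr4 and Fcgr2b with Chd8 siRNA then ran from -0.10 to -0.05, below 0. With the control library numbered 1 left out instead, the same estimates ran from 0.31 to 0.47. A fit without the block is unbalanced over the replicate numbers once 1 library is left out.

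**Figure D2:**
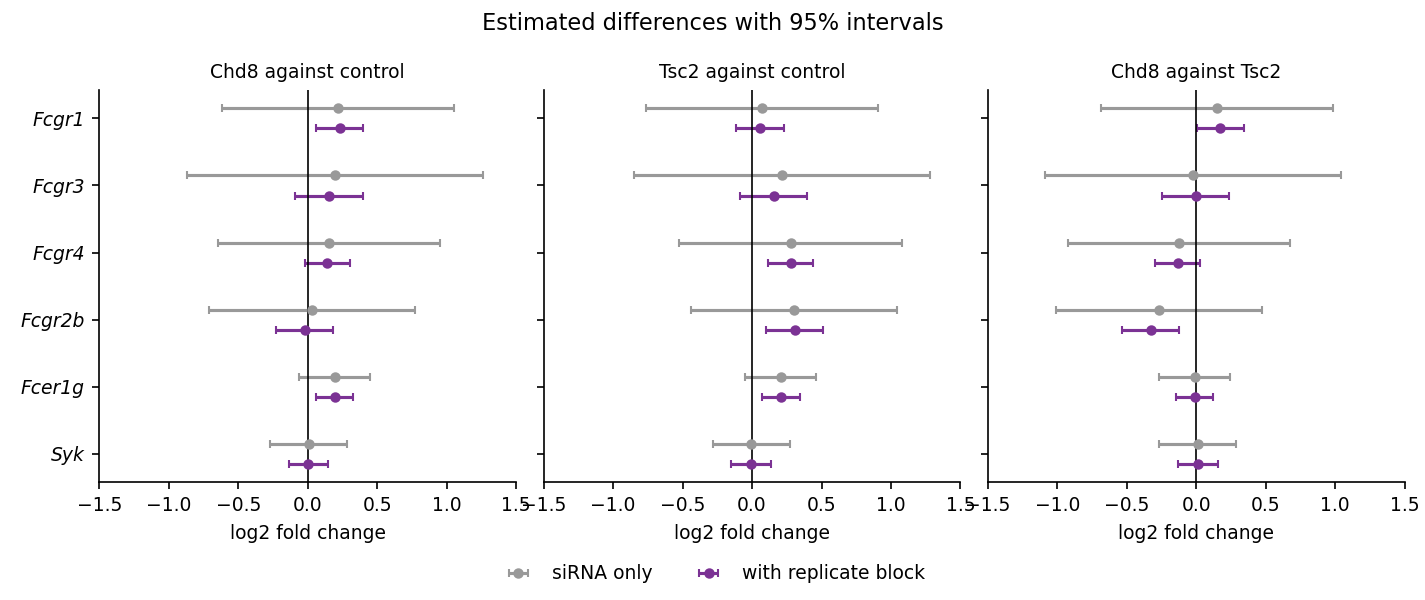
Log2 fold change (x axis) of each gene (y axis) in the 3 comparisons, with 95% intervals. Grey points are the edgeR fit with the siRNA only and purple points the fit with the replicate block. The block narrows the intervals of the 4 receptors most, and no gene was called in either fit.

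Between Chd8 and Tsc2 siRNA no member was called. Fcgr2b was lower with Chd8 than with Tsc2 siRNA at all 3 numbers, by 0.01, 0.43 and 0.55 on the log2 scale, and so was Fcgr4, by 0.04, 0.22 and 0.15. Of all genes, 15.9% were lower with Chd8 siRNA at all 3 numbers. The block fit gave Fcgr2b a log2 fold change of -0.33 (SE 0.10, adjusted p = 0.181) and Fcgr1 0.17 (SE 0.08, adjusted p = 0.456), both with an unadjusted p under 0.05, as had 10.7% of all genes. The sum of Fcgr2b and Fcgr3, which does not depend on how shared reads were split, was 660, 426 and 383 CPM with control siRNA, 794, 358 and 386 CPM with Chd8 siRNA and 807, 448 and 533 CPM with Tsc2 siRNA. It too was lower with Chd8 than with Tsc2 siRNA at all 3 numbers (two-sided exact permutation test, p = 0.5).

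The balance of activating to inhibitory receptors differed more between replicate numbers than between siRNAs. The TPM of Fcgr1, Fcgr3 and Fcgr4 together, over that of Fcgr2b, was 1.86 ± 0.70 with control siRNA (SD, n = 3), 2.29 ± 0.94 with Chd8 siRNA (SD, n = 3) and 1.73 ± 0.66 with Tsc2 siRNA (SD, n = 3). By replicate number it was 1.70 to 1.92 in the libraries numbered 1, 2.27 to 3.37 in those numbered 2 and 1.00 to 1.66 in those numbered 3, and these ranges did not overlap. Chd8 siRNA gave a ratio above control at all 3 numbers, whereas Tsc2 siRNA gave a ratio above control in number 1 and below control in numbers 2 and 3. Fcgr1 was 22.3% to 43.1% of the receptor TPM, Fcgr2b 22.9% to 50.1%, Fcgr4 19.4% to 27.3% and Fcgr3 8.21% to 12.95%.

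The TPM of Fcer1g exceeded that of the activating receptors together in each library. The ratio was 1.51 to 1.63 in the libraries numbered 1, 2.05 to 2.36 in those numbered 2 and 3.13 to 3.604 in those numbered 3. These ranges did not overlap. Fcer1g varied little between numbers, and the receptors varied much. Between siRNAs the ratio was 2.43 ± 1.04 for control, 2.30 ± 0.76 for Chd8 and 2.48 ± 1.03 for Tsc2 (SD, n = 3 each).

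**Figure D3:**
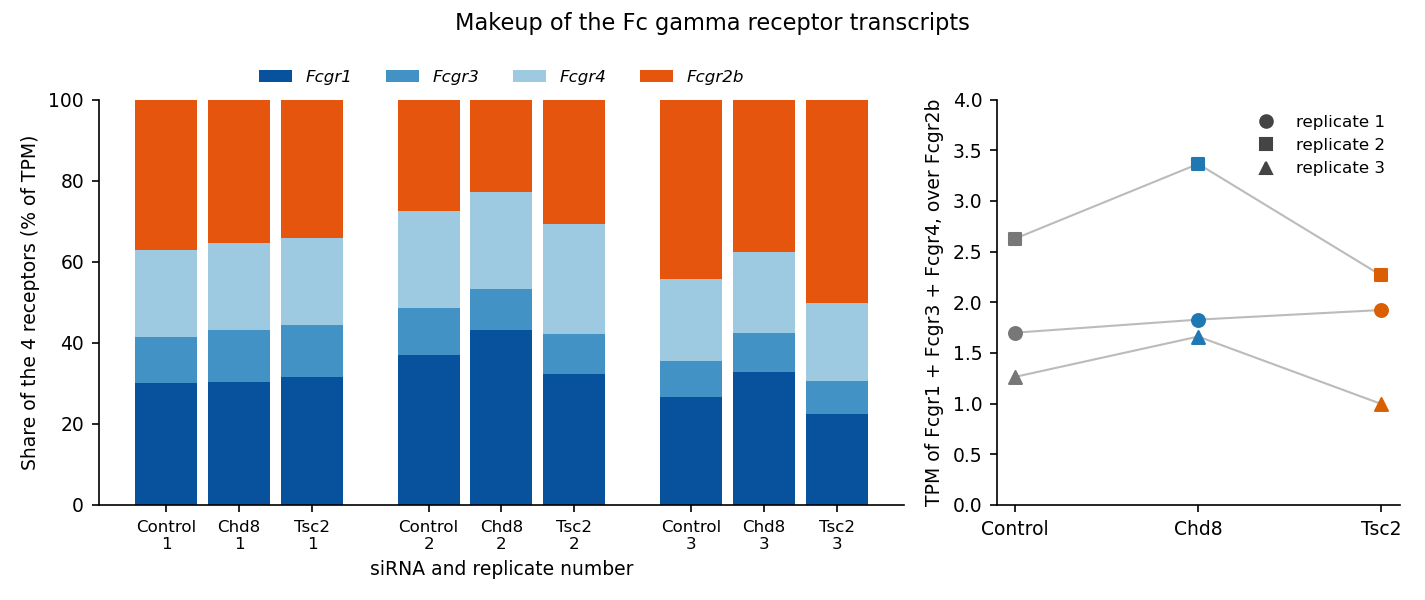
Left, share of each Fc gamma receptor in the TPM of all 4 (y axis, percent) for the 9 libraries, grouped by replicate number. Right, TPM of the activating receptors over that of Fcgr2b (y axis, from 0) by siRNA, with shapes for the replicate number. Fcgr2b takes the smallest shares in the libraries numbered 2 and the largest in those numbered 3.

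Most receptor counts came from 1 coding transcript a gene. Fcgr4-201 was the only annotated transcript of Fcgr4, Fcer1g-201 held 98.5% of the Fcer1g counts, and Fcgr1-201 held 81.0% of the Fcgr1 counts beside 19.0% for Fcgr1-202, which is annotated as a target of nonsense-mediated decay. Fcgr3-201 held 77.6% of the Fcgr3 counts, the retained-intron transcript Fcgr3-203 held 13.4% and Fcgr3-204 held 8.93%. The shares of these transcripts overlapped between groups, except that of Fcer1g-201, which was 98.6% to 98.8% with Chd8 siRNA and 97.8% to 98.5% with control siRNA. Of 12027 transcripts with at least 10% of the counts of their gene, 9.69% had shares that did not overlap between these groups.

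Fcgr2b is known in a form with a cytoplasmic insert, typical of B cells, and in a form without it, typical of myeloid cells. The annotated insert is the 141-base exon at chr1:170963325-170963465, which is in Fcgr2b-201 and Fcgr2b-204 and absent from Fcgr2b-202. Fcgr2b-203 has 57 bases of it. Fcgr2b-201 also ends in a last exon of 2484 bases, against 543 in Fcgr2b-202. It is longer as a whole, with 3544 against 1462 bases, and a longer transcript yields more counts per molecule. The share of Fcgr2b-201 in the counts is thus not a measure of the insert alone. Fcgr2b-202 held 68.4% of the Fcgr2b counts, Fcgr2b-201 held 12.7%, Fcgr2b-204 0.605% and the retained-intron transcript Fcgr2b-205 13.7%. The share of Fcgr2b-201 was 13.1%, 14.0% and 14.4% with control siRNA, 12.03%, 14.2% and 14.9% with Chd8 siRNA and 12.4%, 12.7% and 10.9% with Tsc2 siRNA. The Tsc2 libraries lay below all control libraries, and the two-sided exact permutation test gave p = 0.1, the smallest it can give. Of the 12027 transcripts, 9.83% had shares that did not overlap between these groups. The 6 B cell markers summed to 5.13 to 5.63 CPM in the libraries numbered 1, 0.739 to 2.11 CPM in those numbered 2 and 1.16 to 3.46 CPM in those numbered 3, with Ighm at up to 5.33 CPM and Pax5 at up to 1.89 CPM. Their part in the share of Fcgr2b-201 was not tested.

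Syk RNA was split between 2 transcripts with identical coding sequence of 1887 bases. Syk-203 starts at an upstream first exon (chr13:52583173-52583605) and Syk-201 at a first exon 13680 bases further downstream (chr13:52596853-52597054), and they share 12 of 14 exons. Syk-201 held 44.7%, 49.2% and 53.7% of the Syk counts with control siRNA, 41.1%, 43.0% and 46.2% with Chd8 siRNA and 50.9%, 56.1% and 55.2% with Tsc2 siRNA. Syk-203 mirrored it, with 42.1%, 40.0% and 32.7%, with 45.8%, 45.9% and 42.2% and with 37.0%, 34.9% and 32.5%, respectively.

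The share of Syk-201 was lower than control at all 3 numbers with Chd8 siRNA and higher than control at all 3 numbers with Tsc2 siRNA. The Chd8 and Tsc2 groups did not overlap for either transcript, nor did the Chd8 and control groups for Syk-203 (two-sided exact permutation test, p = 0.1 each, the smallest it can give). Of the 12027 transcripts, 9.56% did not overlap between Chd8 and Tsc2 siRNA and 9.69% between Chd8 and control siRNA, and 24.7% and 25.7% differed in 1 direction at all 3 numbers. Between Tsc2 and control siRNA, 25.2% differed in 1 direction at all 3 numbers. The total of Syk did not differ in this way, and the split rests on how salmon assigned reads between transcripts that share most exons.

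**Figure D4:**
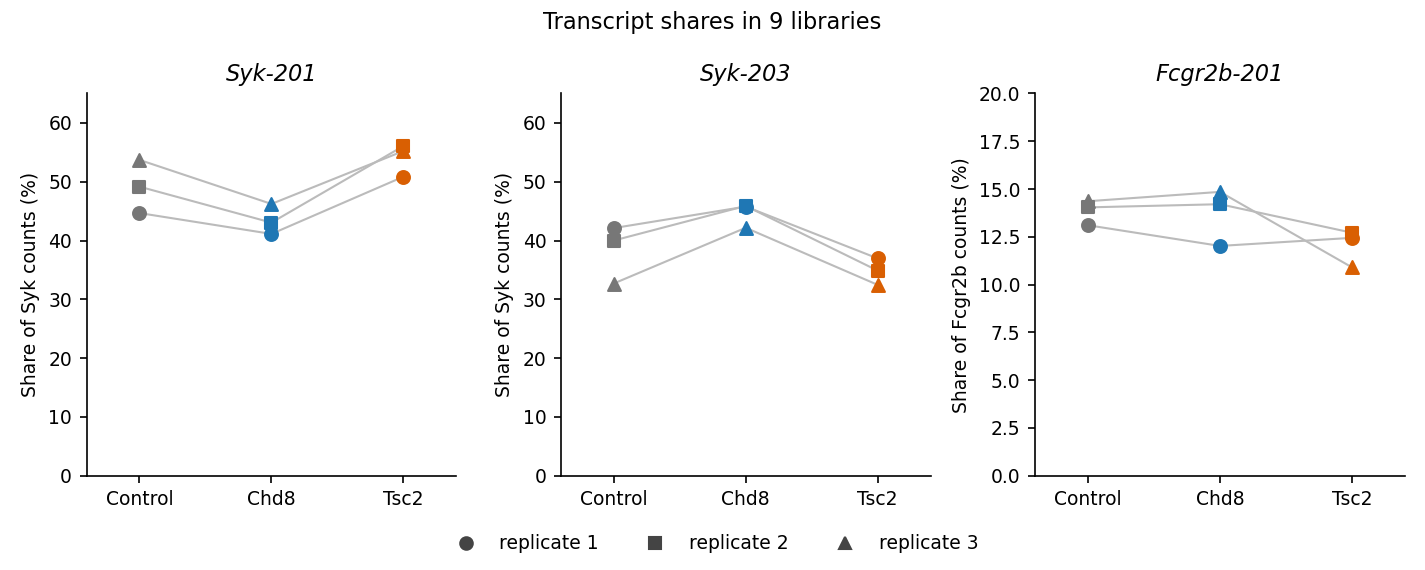
Share of the counts of Syk (Syk-201, Syk-203) and Fcgr2b (Fcgr2b-201) held by a transcript (y axis, percent, from 0) by siRNA, 1 point a library with shapes for the replicate number. Syk-201 is lowest with Chd8 siRNA and highest with Tsc2 siRNA at each number, and Syk-203 runs the other way.

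Each member was set beside 6143 other genes with a mean of at least 10 CPM to find those most like it over the 9 libraries. Pearson's r is a description here, since the libraries share 3 replicate numbers. Fcgr1 was most like Wdfy2 (r of 0.98, and 0.96 with the replicate means removed), Sympk and Themis2, and Fcgr4 was most like Coro1b (0.98 and 0.85), Themis2 and Cept1. Fcgr3 was most like Capzb (0.99 and 0.86) and Ypel5. Fcgr2b was most like Cp (0.98 and 0.94), G3bp2 and Limd2. Fcer1g was most like Fau (0.98 and 0.98), C1qb, which encodes a chain of complement C1q (0.96 and 0.95), and Atp6v1g1. Syk was most like Lats1 (0.96 and 0.92), Prkcd (0.94 and 0.92) and Oas2.

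The rest of the pathway was read from lists of 122 genes, the members not counted, of which 109 were tested. Without the block 0 of them were called in any comparison, and 1, 4 and 2 had an unadjusted p under 0.05 for Chd8 against control, Tsc2 against control and Chd8 against Tsc2 siRNA. With the block 1 fell for Chd8, 2 rose for Tsc2 and 0 were called between the knockdowns, beside the background shares of 0.535%, 0.387% and 0.221% given above. Their median log2 fold change was 0.04, 0.07 and -0.02 in the block fit. An unadjusted p under 0.05 was reached by 28, 31 and 23 of the 109 genes in that fit, beside 12.8%, 10.7% and 10.7% of all genes.

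Of 14 genes for other Fc receptors and Fc receptor-like proteins, 6 were tested and 0 called. Fcrls, a microglial Fc receptor-like gene, stood at 141 to 220 CPM, Trim21, a cytosolic IgG receptor, at 108 to 173 CPM and Fcgrt, the neonatal Fc receptor, at 11.5 to 20.8 CPM. Fcer1a, the IgE-binding chain of the high-affinity receptor, and Fcamr and Fcmr, which bind IgM, were at 0 in all libraries. Of 15 genes for other ITAM adaptors and their partners 13 were tested and 0 called. Tyrobp, the adaptor of Trem2 and the closest relative of Fcer1g in function, stood at 110 to 176 CPM, and Clec4e, which signals through Fcer1g, at 334 to 829 CPM.

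Of 12 genes for Src-family kinases and their regulators, which phosphorylate the ITAM or control the kinases that do, 11 were tested and 0 called. Lyn was the highest of the kinases, at 927 to 1266 CPM. Src itself stood at 158, 259 and 204 CPM with control siRNA, at 199, 338 and 292 CPM with Chd8 siRNA and at 178, 302 and 257 CPM with Tsc2 siRNA, so both knockdowns were above control at each number. The block fit gave Src a log2 fold change of 0.41 (SE 0.07, adjusted p = 0.014) with Chd8 siRNA, which passed the FDR but not the fold change of 1.5. With 1 library left out it passed the FDR in 2 of 6 block fits (adjusted p 0.0222 to 0.175), and without the block its adjusted p was 1.00.

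Downstream of Syk, 20 of 21 genes for adaptors, Tec kinases and phospholipases were tested, and Nck1 rose with Tsc2 siRNA in the block fit. Nck1, an adaptor that links phosphotyrosines to actin assembly, stood at 19.2, 30.8 and 31.7 CPM with control siRNA, at 24.9, 29.5 and 42.5 CPM with Chd8 siRNA and at 28.0, 45.9 and 55.2 CPM with Tsc2 siRNA. With Tsc2 siRNA the log2 difference was 0.65 (SE 0.12, adjusted p = 0.0217), and the highest control library was above the lowest Tsc2 library. Without the block its adjusted p was 1.00. Pla2g4a, a cytosolic phospholipase A2, passed the FDR with Chd8 siRNA below 1.5-fold, at -0.55 in the block fit (SE 0.11, adjusted p = 0.0301). Its levels were 89.9, 55.1 and 42.3 CPM with control siRNA, 74.0, 34.3 and 26.3 CPM with Chd8 siRNA and 80.6, 35.0 and 26.4 CPM with Tsc2 siRNA, with overlap of the groups. With 1 library left out, Pla2g4a passed the FDR in 1 of 6 block fits (adjusted p 0.0116 to 0.287). The 9 PI3-kinase subunit genes were all tested and 0 called, with a median of -0.03 for Chd8 and of -0.05 for Tsc2 siRNA.

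All 26 genes for small GTPases, their exchange factors and actin regulators of the phagocytic cup were tested, and 0 were called. Their median log2 fold change was 0.14 with Chd8 siRNA, with 19 of 26 above 0, and 0.09 with Tsc2 siRNA, with 20 of 26 above 0, beside -0.02 and -0.01 over all genes in the block fit. Marcks, which binds actin and the plasma membrane, passed the FDR with Tsc2 siRNA below 1.5-fold, at 0.41 (SE 0.08, adjusted p = 0.0346). With 1 library left out it passed the FDR in 2 of 6 block fits (adjusted p 0.00186 to 0.337), with a log2 fold change of 0.30 to 0.53. Its levels were 726, 632 and 481 CPM with control siRNA, 863, 793 and 574 CPM with Chd8 siRNA and 810, 855 and 740 CPM with Tsc2 siRNA. The Tsc2 libraries lay above all control libraries, as the libraries of 8.11% of all genes did not overlap in this comparison, whereas the Chd8 libraries overlapped with both groups.

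On the inhibitory side, 24 of 25 genes for phosphatases, ligases and ITIM receptors were tested. Pirb, a paired receptor with ITIMs in its tail, rose with Tsc2 siRNA in the block fit, with a log2 fold change of 0.64 (SE 0.13, adjusted p = 0.0367). It stood at 229, 93.0 and 39.4 CPM with control siRNA, at 297, 105 and 60.2 CPM with Chd8 siRNA and at 295, 119 and 90.6 CPM with Tsc2 siRNA, and its level in each group was highest in the library numbered 1 and lowest in that numbered 3. Pilra, another ITIM receptor, fell with Chd8 siRNA, with a log2 fold change of -0.77 (SE 0.15, adjusted p = 0.0202), from 24.7, 17.1 and 20.4 CPM with control siRNA to 14.3, 8.61 and 13.7 CPM. It stood at 15.8, 11.8 and 14.4 CPM with Tsc2 siRNA, also below all control libraries. Of all genes, 9.09% did not overlap between Chd8 and control siRNA and 8.11% between Tsc2 and control siRNA. Pirb and Pilra have close relatives in the genome, and counts of such genes are uncertain where reads are shared. Neither was called without the block, where the adjusted p was 1.00. With 1 library left out of the block fit, Pilra was called in 0 of 6 fits (adjusted p 0.0676 to 0.149), and Nck1 and Pirb each in 1 of 6, without the Tsc2 library numbered 1 (adjusted p 0.0159 to 0.252 and 0.00943 to 0.337).

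Inpp5d, whose product SHIP1 is the phosphatase recruited by Fcgr2b, stood at 56.6, 37.9 and 30.5 CPM with control siRNA, at 57.9, 57.9 and 45.5 CPM with Chd8 siRNA and at 43.8, 27.9 and 32.8 CPM with Tsc2 siRNA. The Chd8 libraries lay above all Tsc2 libraries, as the libraries of 8.44% of all genes did not overlap in this comparison. The block fit gave a log2 fold change of 0.64 for Chd8 against Tsc2 siRNA (SE 0.14, adjusted p = 0.0703), which did not pass the threshold. In the same comparison Fcgr2b itself had the other sign.

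Other genes of this list ran in both directions. Clec12a, an ITIM receptor, passed the FDR with Chd8 siRNA below 1.5-fold, at 0.42 in the block fit (SE 0.09, adjusted p = 0.0279), and in 0 of 6 block fits with 1 library left out (adjusted p 0.0605 to 0.243). With Tsc2 siRNA the block fit gave Cd33, a Siglec receptor, a log2 fold change of -0.68 (SE 0.15, adjusted p = 0.0573) and Dok1, an adaptor that dampens kinase signaling, one of 0.64 (SE 0.15, adjusted p = 0.0806), and neither passed the threshold.

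**Figure D5:**
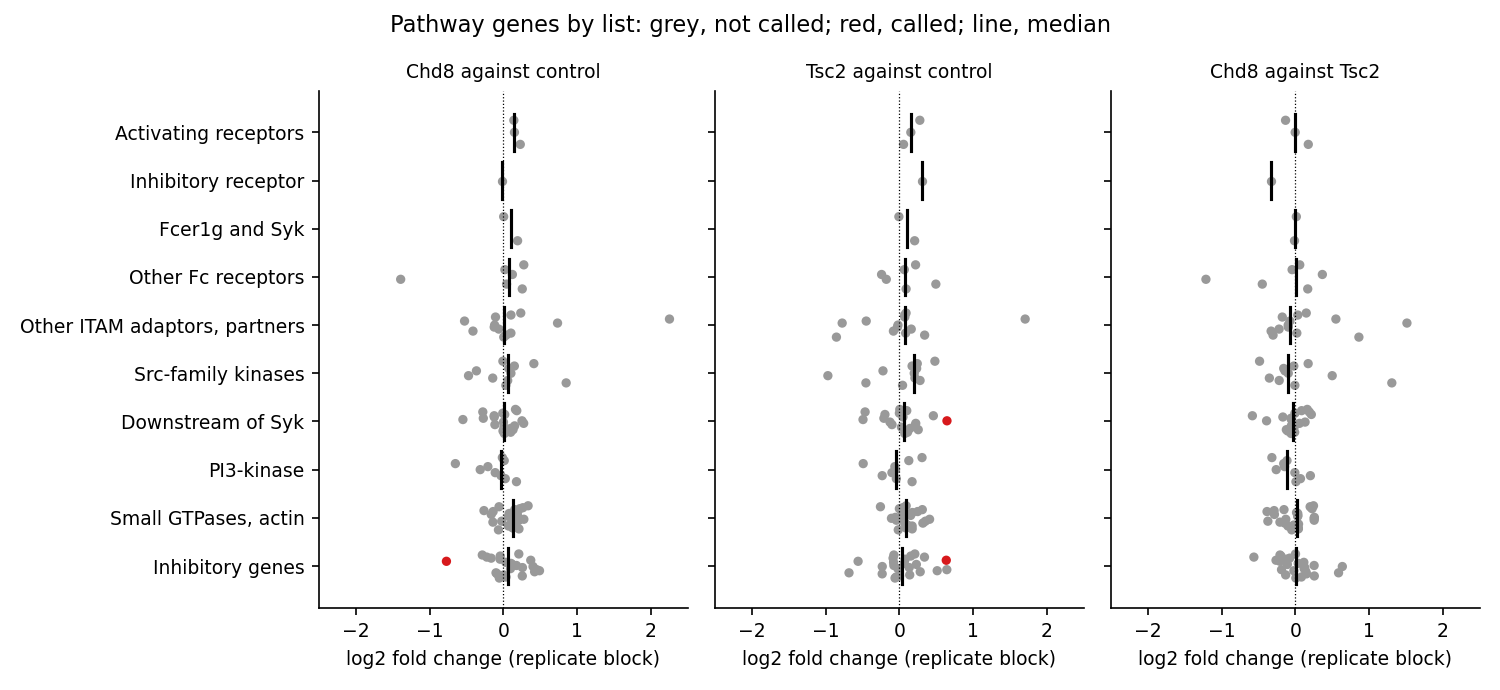
Log2 fold change in the block fit (x axis) of the tested genes of each list (y axis), 1 point a gene, with the list median as a black line. Called genes are red: Pilra for Chd8 against control siRNA, and Nck1 and Pirb for Tsc2 against control siRNA, with 0 between the knockdowns.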

How the data were processed

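RNA-seq counts were available for 9 libraries of primary mouse microglia, grouped by the siRNA in the labels. The authors quantified reads with salmon (version 0.14.1 per the submitters' processing notes) on mm10 and deposited estimated counts per transcript, not normalized. Of 140948 transcripts, 139852 matched GENCODE mouse release M21, used here for genes, exons and sequences, and 1096 transcripts with 0.27% of counts did not and were left out. Transcript counts were summed per gene and rounded.

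Differences were tested with edgeR 4.0.16 (R 4.3.3) by the quasi-likelihood test after filterByExpr and TMM scaling, with a single model of the 9 libraries that held the siRNA alone. Benjamini-Hochberg adjustment ran over 16273 genes, and calls needed an FDR below 0.05 with at least a 1.5-fold difference. Exact permutation tests were two-sided, on log2 CPM with a pseudocount of 0.5 for genes and on the percent shares for transcripts. TPM divided counts by annotated transcript length and summed all transcripts of a gene, coding or not. Total counts of 16913448 to 33213801 per library set floors that cover counting error only. The estimates of salmon came without their own error.

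The replicate numbers of the labels were used as a block in a second fit. Deviations from the group means correlated at 0.244 to 0.521 in each of the 9 pairs of libraries with the same number, and at -0.381 to 0.0363 in the 18 pairs with other numbers. The labels do not say what a number shares. P-values measure the spread between these libraries.

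Alternatives were DESeq2 1.42.0 (Wald test), its size factors, limma-voom (limma 3.58.1), edgeR's likelihood-ratio test, no count filter, fits of 2 groups, coding or highest transcripts only, a pseudocount of 2, and each library left out. The members and lists were chosen with earlier results of these data known. Named are the members, their transcripts with at least 10% of counts in a group, the 3 genes most like each member, and list genes called or with the lowest p in a direction. Genes of that rule that are not printed had no call, and a few items are not reported here. The fits were tested on simulated data with large changes and no effect of the replicate number, which cover neither small differences nor the use of the block. No reference protein sequences were used, and residues were translated from the coding sequences.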

Additional observations from a re-analysis of the deposited data

How the results depend on the processing

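No member was called in any of the 378 member fits under an alternative, and 318 of them kept the sign of the reported log2 fold change. Of 162 fits with no single library left out, 13 had the other sign. The cause of these changes was not tested. For Fcgr2b under Chd8 siRNA it was -0.022 with the replicate block and -0.017 with limma-voom. For Syk under Chd8 siRNA it was -0.012 from coding transcripts and -0.19 from the highest transcript. For Syk under Tsc2 siRNA it was 0.0004 with DESeq2's size factors, 0.0004 with DESeq2's Wald test, 0.017 without a count filter and 0.13 from the highest transcript. Between Chd8 and Tsc2 siRNA, Fcgr3 was at 0.028 with limma-voom, 0.043 from coding transcripts and 0.0025 from the highest transcript, and Syk at -0.0026 without a count filter and -0.32 from the highest transcript.

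The number of genes called over the whole table, 0 in each comparison, was for Chd8, Tsc2 and Chd8 against Tsc2 siRNA 87, 63 and 36 with the replicate block, 9, 6 and 5 with DESeq2, 7, 7 and 2 with the likelihood-ratio test, and 2, 1 and 0 without a count filter. Leaving out 1 library gave 0 in each fit without the block. With the block it gave 20 to 81, 7 to 131 and 4 to 130, the lower ends without the control library numbered 3 (Chd8 and Tsc2) or the Chd8 library numbered 3, the upper ends without the control library numbered 1 (Chd8) or the Tsc2 library numbered 1.

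With each library left out in turn, with and without the block, the log2 fold change under Chd8 siRNA ran from -0.045 to 0.47 for Fcgr1, -0.31 to 0.48 for Fcgr3, -0.15 to 0.42 for Fcgr4, -0.42 to 0.31 for Fcgr2b and -0.049 to 0.073 for Syk, but from 0.14 to 0.26 for Fcer1g. Under Tsc2 siRNA it ran from -0.27 to 0.35 for Fcgr1, -0.34 to 0.51 for Fcgr3 and -0.098 to 0.068 for Syk, and, above 0 throughout, from 0.029 to 0.53 for Fcgr4, 0.083 to 0.58 for Fcgr2b and 0.16 to 0.28 for Fcer1g. Between Chd8 and Tsc2 siRNA it ran from -0.13 to 0.49 for Fcgr1, -0.53 to 0.54 for Fcgr3, -0.43 to 0.12 for Fcgr4, -0.059 to 0.046 for Fcer1g and -0.064 to 0.10 for Syk, and, below 0 throughout, from -0.72 to -0.043 for Fcgr2b. In the block fit Fcgr2b passed the FDR below 1.5-fold without the Chd8 library numbered 1 (-0.478, adjusted p = 0.0349) and without the Tsc2 library numbered 1 (-0.434, adjusted p = 0.0483). The replicate block changed no call of a member. A pseudocount of 2 gave the same exact permutation p for each member.

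With 3 libraries a group and receptors that vary 2.34- to 3.41-fold over the libraries, differences of 1.5-fold in Fcgr1, Fcgr3, Fcgr4 or Fcgr2b could not be told from 0 without the block. The split between Fcgr2b and Fcgr3, and between Syk transcripts, has an assignment error that the deposited counts do not carry.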
